A study of Homo sapiens with 6 samples.

Results

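ATAD2, HGH1, ZNF7, ZNF250 and ZNF706 are 5 protein-coding genes of the long arm of chromosome 8 with strong peaks of BG4, an antibody directed at DNA G-quadruplexes (G4s). They were picked by name for those peaks, out of 19817 coding genes, so the strength and the presence of their peaks describe the choice and were not tested. Every peak inside a gene or within 1 kb of it was counted, which gave 4 peaks at 4 genes in the HD list and 6 peaks at all 5 genes in the Ctrl list, of 2172 HD and 3376 Ctrl peaks on chromosomes 1 to 22 and X. Such a peak was found for 9.54% of all coding genes in HD and 13.3% in Ctrl, and nothing is read from the members' count, since it follows from the choice. The cells were U2OS, an established human osteosarcoma line, either treated with 1,6-hexanediol (HD), an alcohol that dissolves many biomolecular condensates, or left untreated (Ctrl). There were 2 ChIP libraries and 1 input library for each condition. Only 1 peak list per condition was analysed, so no value has a replicate error. All 2269 peak names of the HD list, other sequences included, carry the number of replicate 1. The labels tie the list to both libraries, and which reads entered it is not stated. No dose or duration of hexanediol was found in the labels.

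A G4 is a stack of guanine tetrads that guanine-rich single strands can form, and in human chromatin G4s are known mainly from open, nucleosome-poor promoters of active genes. The long arm of chromosome 8 is often gained in osteosarcoma, and its outermost bands are rich in genes. ATAD2 is an ATPase with a bromodomain that binds acetylated histones and acts as a co-activator of E2F and MYC target genes. HGH1 is known in yeast as a chaperone of translation elongation factor eEF2. ZNF7 and ZNF250 are zinc finger proteins of the C2H2 class, most of which bind DNA, and ZNF706 is a very small zinc finger protein.

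The strongest peaks of these genes all lay at 1 end of the gene, and none of the 5 genes had a peak at its other end. The gene table used, RefSeq GRCh38.p14, the same assembly as the hg38 of the files, carries no strand, so the ends are called lower and upper by position. ATAD2 (gene ID 29028) spans chromosome 8, 123319850 to 123416350, and its peak crossed the upper end. ZNF706 (gene ID 51123, 101197052 to 101206222) and ZNF250 (gene ID 58500, 144876955 to 144902177) carried theirs just inside the upper end. HGH1 (gene ID 51236, 144137774 to 144140851) and ZNF7 (gene ID 7553, 144827560 to 144847508) carried theirs across the lower end. As background from standard gene models, the first 3 genes are transcribed toward lower positions and the other two toward higher ones, so each of these ends is the one where transcription starts.

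The summits fell into 2 positions relative to the gene end. At ATAD2 the summit lay outside the gene, 0.146 kb from the end in HD and 0.143 kb in Ctrl. At ZNF7 it was also outside, 0.194 kb from the end in HD and 0.137 kb in Ctrl, and at HGH1 it was 0.057 kb outside in Ctrl. At ZNF250 the summit lay inside the gene, 0.572 kb from the end in HD and 0.606 kb in Ctrl. At ZNF706 it was inside as well, 0.486 kb in HD and 0.45 kb in Ctrl. Summits within 250 bp of a coding gene end made up 77.2% of the 1318 HD and 78.6% of the 1811 Ctrl gene-end peaks, so the more distant summits of ZNF250 and ZNF706, measured to their own ends, are the less common kind. The ZNF250 summit was, however, 19 bp in HD and 53 bp in Ctrl from the lower end of LOC124902042, a predicted coding gene of 144901624 to 144902281 that lies across the ZNF250 end.

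**Figure D1:**
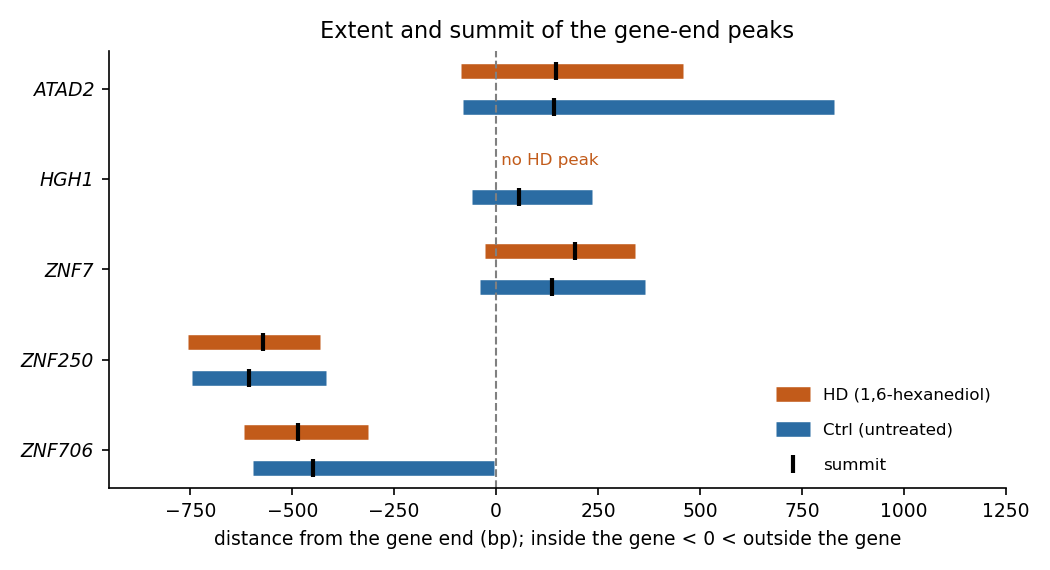
Extent (bars) and summit (black marks) of the gene-end peak of each gene, in bp from the gene end it belongs to, with negative values inside the gene. HD is drawn above Ctrl for each gene. The summits of ATAD2, HGH1 and ZNF7 lie outside the gene and those of ZNF250 and ZNF706 inside it, and HGH1 has no HD peak.

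Where both lists had a peak, the summits were close together while the widths differed. The summit moved by 3 bp at ATAD2, 57 bp at ZNF7, 34 bp at ZNF250 and 36 bp at ZNF706 between the lists, against a median of 41 bp (quartiles 16 and 81) over all 1300 Ctrl peaks with an HD partner. At ATAD2 the peak was 546 bp wide in HD and 909 bp in Ctrl, where it was wider than 99.2% of peaks or equal to them. The ZNF706 peak was 305 bp wide in HD and 593 bp in Ctrl. The ZNF7 peak was 368 bp in HD and 407 bp in Ctrl, and the ZNF250 peak 324 bp in HD and 330 bp in Ctrl. The HD to Ctrl width ratio was thus 0.60 at ATAD2 and 0.51 at ZNF706, below the lower quartile of all shared peaks (0.81). At ZNF7 it was 0.90 and at ZNF250 0.98, within the quartiles of all shared peaks, whose median was 0.98.

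Both wide Ctrl peaks extended beyond the HD peak on a single side. At ATAD2 the HD peak (chr8:123416264-123416809) and the Ctrl peak (chr8:123416270-123417178) began 6 bp apart, and the Ctrl peak reached further out, deeper into the neighbouring gene NTAQ1. At ZNF706 the HD peak (chr8:101205604-101205908) and the Ctrl peak (chr8:101205625-101206217) also began close together, and the Ctrl peak reached on to the gene end. The ZNF706 overlap was 284 bp, which is 93.1% of the HD peak and 47.9% of the Ctrl peak.

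At ATAD2, ZNF7 and ZNF250 the peak was shared with a neighbouring gene. How often this holds over all marked genes was not worked out, so nothing is read from the number. ATAD2 and NTAQ1, which encodes an enzyme that deamidates N-terminal glutamine, lie 375 bp apart, and 1 peak covered the ends of both in each list. Its summit was 229 bp in HD and 232 bp in Ctrl from the NTAQ1 end, so it lay between the 2 genes and nearer to ATAD2. The ZNF7 peak (HD chr8:144827219-144827586, Ctrl chr8:144827194-144827600) lay mostly in the 520 bp between ZNF7 and the non-coding RNA gene LOC100130027, with the summit nearer to ZNF7. The ZNF250 peak (HD chr8:144901421-144901744, Ctrl chr8:144901432-144901761) was shared with LOC124902042. The peaks of HGH1 and ZNF706 touched no other gene end within 1 kb. A shared peak cannot be given to 1 of its genes from these files.

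ATAD2 was also the only one of the 5 genes with a second peak. It was in the Ctrl list only (chr8:123396453-123396850), inside the gene and 19.8 kb from the upper end, with 34 summit fragments and a −log10 q of 8.23, rank 1024 of 3507. The nearest HD peak was the one at the ATAD2 end, 19.4 kb away. Outside the 1 kb limit, the nearest peaks to the genes were 6.89 kb from HGH1 in HD and 6.92 kb in Ctrl, both at MROH1, and at least 28.5 kb from the other genes.

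The ChIP fragments stacked over a summit were recovered from the authors' fold enrichment and p-value, and intervals on it are exact 95% Poisson intervals that cover counting error only. The HD track was 1.40 times as deep as the Ctrl track (27539 fragments per Mb in HD and 19601 in Ctrl), so the raw numbers are not comparable until they are scaled. ATAD2 held 96 fragments in HD (77.8 to 117) and 76 in Ctrl (59.9 to 95.1). ZNF7 held 93 in HD (75.1 to 114) and 71 in Ctrl (55.5 to 89.6). These were the strongest of the set in both lists. ZNF250 held 68 fragments in HD (52.8 to 86.2) and 49 in Ctrl (36.3 to 64.8), and ZNF706 held 49 in HD (36.3 to 64.8) and 44 in Ctrl (32.0 to 59.1). HGH1 held 53 in Ctrl (39.7 to 69.3) and had no HD peak.

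After scaling for depth, the 4 genes with a peak in both lists had HD to Ctrl ratios a little under 1, and every interval included 1. The ratio was 0.90 at ATAD2 (0.66 to 1.23), 0.93 at ZNF7 (0.68 to 1.29), 0.99 at ZNF250 (0.67 to 1.46) and 0.79 at ZNF706 (0.52 to 1.22). Over all 1300 shared peaks the median ratio was 0.95 (quartiles 0.82 and 1.07), and 62.8% of them were under 1, so 4 of 4 members under 1 is read against that background. Of all shared peaks, 40.0% had a lower ratio than ATAD2, 46.8% than ZNF7, 60.8% than ZNF250 and 19.0% than ZNF706.

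**Figure D2:**
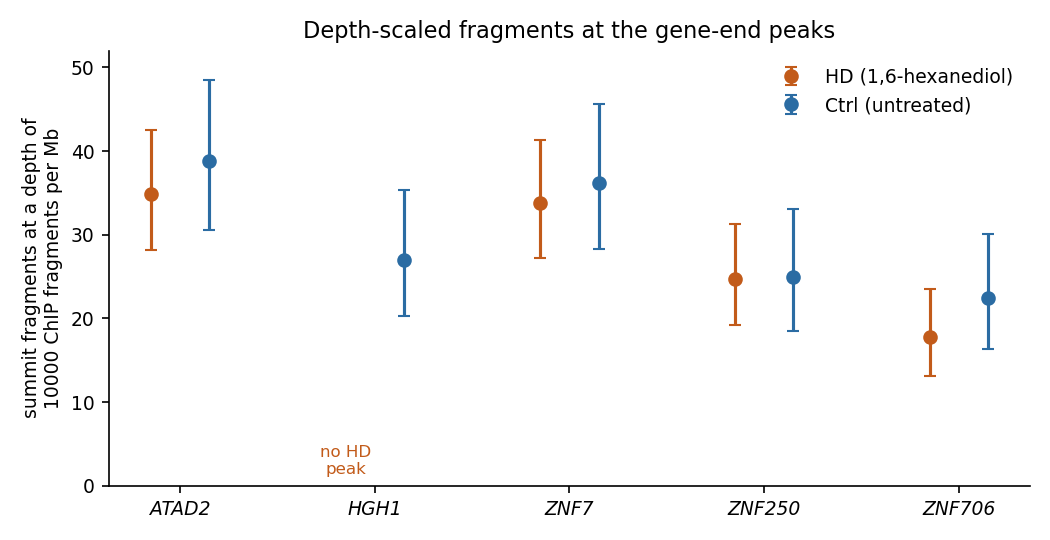
Summit fragments of the gene-end peaks, scaled to a depth of 10000 ChIP fragments per Mb, with exact 95% Poisson intervals as bars, HD left of Ctrl for each gene. Scaled values were 34.9 in HD and 38.8 in Ctrl at ATAD2, and the HD and Ctrl intervals overlap at the 4 genes that have both.

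**Figure D3:**
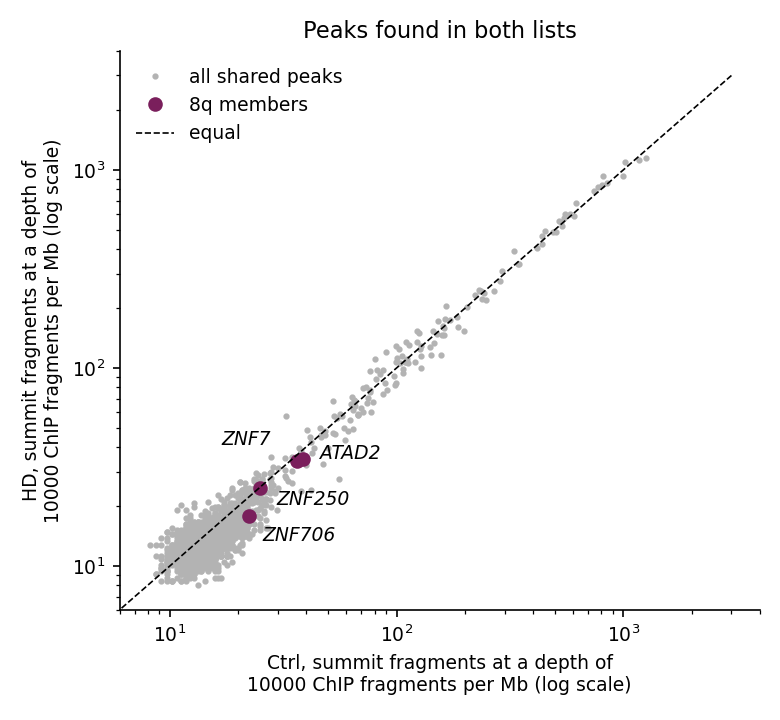
Depth-scaled summit fragments in HD (vertical) and Ctrl (horizontal) for all 1300 shared peaks (grey) and the 4 shared peaks of ATAD2, ZNF7, ZNF250 and ZNF706 (purple), on log axes, with the line of equal values. The 4 genes lie on or just under the line, at the upper end of the dense cloud.

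Set against the caller's local expectation from the input, called times the input here, the ratios were lower. ATAD2 had 7.62 times the input in HD (6.17 to 9.31) and 10.1 times in Ctrl (7.93 to 12.6). ZNF7 had 7.38 times in HD (5.96 to 9.05) and 9.40 times in Ctrl (7.34 to 11.9). ZNF706 had 5.83 times in HD (4.31 to 7.71) and 9.30 times in Ctrl (6.76 to 12.5), and ZNF250 had 4.41 times in HD (3.43 to 5.60) and 7.24 times in Ctrl (5.36 to 9.57). The HD to Ctrl ratio on this measure was 0.76 at ATAD2 (0.55 to 1.04), 0.79 at ZNF7 (0.57 to 1.09), 0.61 at ZNF250 (0.42 to 0.90) and 0.63 at ZNF706 (0.41 to 0.96). The intervals of ZNF250 and ZNF706 lay below 1, and those of ATAD2 and ZNF7 included it. Over all shared peaks the median was 0.92 (quartiles 0.76 and 1.10). Only 9.08% of shared peaks had a lower value than ZNF250 and 10.4% a lower value than ZNF706.

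Times the input falls by definition as the expectation rises, so the expectation is given here. The recovered fragment length was 200 bp in HD and 191 bp in Ctrl, and the depth scaling above does not include it. The caller's expectation, as a multiple of its genome-wide value, was 2.28 in HD and 2.02 in Ctrl at both ATAD2 and ZNF7, 2.79 in HD and 1.81 in Ctrl at ZNF250, and 1.52 in HD and 1.27 in Ctrl at ZNF706. It was thus higher in HD at all 4 genes, while its median over all peaks was 1.37 in HD and 1.44 in Ctrl. These medians cover different peaks in the 2 lists. The share of all shared peaks with a higher value in HD was not worked out, so nothing is read from the 4 genes. The intervals above take the input as known, each condition has 1 input library, and the part of input counting error in these ratios was not tested. The genes were also picked for strong peaks, and for ATAD2, ZNF7, ZNF250 and ZNF706 the rank by fold was better in Ctrl, so no change with hexanediol is read from these 4 ratios.

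Ranks within each list differed among the genes and between the lists. By −log10 q, ATAD2 was rank 74 of 2269 in HD and 81 of 3507 in Ctrl, and ZNF7 was rank 77 in HD and 87 in Ctrl. ZNF250 was rank 273 in HD and 179 in Ctrl, and ZNF706 rank 300 in HD and 162 in Ctrl. HGH1 was rank 140 in Ctrl. By the authors' fold enrichment, ATAD2 was rank 15 in HD (fold 6.96) and 6 in Ctrl (fold 8.93), and ZNF7 rank 22 in HD (fold 6.75) and 12 in Ctrl (fold 8.35). ZNF706 was rank 304 in HD (fold 5.14) and 28 in Ctrl (fold 7.76), and ZNF250 rank 1027 in HD (fold 4.13) and 157 in Ctrl (fold 6.38). ATAD2 and ZNF7 therefore stood near the top of both lists, while ZNF250 and ZNF706 stood higher in the Ctrl list. The lists differ in length and depth, so a difference in rank is no measure of change.

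HGH1 was the only one of the 5 genes whose gene-end peak had no HD counterpart. Its Ctrl peak (chr8:144137539-144137832, 294 bp wide, fold 6.84, rank 89 by fold) had 7.76 times the input (5.81 to 10.1). The nearest HD peak was 9.91 kb away, at MROH1. Among Ctrl peaks on chromosomes 1 to 22 and X with a −log10 q at least as high, 80 of 103 (77.7%) had an HD partner, against 38.5% of all 3376 Ctrl peaks, so HGH1 is among the 23 strong ones without. HGH1 was chosen through this Ctrl peak, so no loss in HD is read from it. Fragment numbers at a place without a peak were not used here, so how many HD fragments lay at HGH1 is unknown.

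The genes of most similar rank were found by the rank of each coding gene's best gene-end peak by −log10 q, summing the differences over the 2 lists. By this rule ATAD2 was followed by NTAQ1, which has the same peak, and by AFG3L2 and ZNF7. ZNF7 was closest to AFG3L2, which encodes a protease of the inner mitochondrial membrane (83 fragments in HD and 68 in Ctrl), then RELL1 (68 in HD and 55 in Ctrl) and ATAD2. ZNF250 was closest to LOC124902042 by its shared peak, then PPA1, an inorganic pyrophosphatase gene (44 in HD and 40 in Ctrl), and CTNNBIP1, an inhibitor of beta-catenin (42 in HD and 41 in Ctrl). ZNF706 was closest to RAB40B (44 in HD and 42 in Ctrl), then LOC124902042 and ZNF250. HGH1, ranked in Ctrl alone, was closest to NAT9 and SLC38A12, both with 44 Ctrl fragments, and to OLA1 with 41.

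HGH1, ZNF7 and ZNF250 lie in a stretch of chromosome 8 with many peaks, ATAD2 where they were fewer, and ZNF706 where they were few. Within 1 Mb of the HGH1 summit there were 26 HD peaks and 43 Ctrl peaks besides its own. Around the Ctrl summit of ZNF7 there were 19 other HD and 34 other Ctrl peaks, and around that of ZNF250 17 other HD and 33 other Ctrl peaks. Around the Ctrl summit of ATAD2 there were 4 other HD and 7 other Ctrl peaks, and around that of ZNF706 1 other HD and 2 other Ctrl peaks. For comparison, the 1527 tiles of 2 Mb on chromosomes 1 to 22 and X outside the dense stretch held a median of 0 HD peaks and 1 Ctrl peak. Of these tiles, 88.6% held fewer HD peaks and 90.3% fewer Ctrl peaks than the surroundings of ATAD2, and 53.2% fewer HD peaks and 62.1% fewer Ctrl peaks than those of ZNF706. Measured from the ZNF706 peak and not from the gene, the nearest other peak was 253 kb away in HD and 50.2 kb away in Ctrl.

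The region examined around them is 2 Mb long, starts 1.14 Mb below HGH1 and ends 0.0978 Mb above ZNF250. It held 26 HD peaks, or 13 per Mb (exact Poisson interval 8.49 to 19.0), and 44 Ctrl peaks, or 22 per Mb (16.0 to 29.5). The rest of the chromosome held 0.496 HD and 0.888 Ctrl peaks per Mb, and chromosomes 1 to 22 and X together 0.717 HD and 1.11 Ctrl peaks per Mb. These 2 Mb thus held 26.8% of the HD peaks and 25.7% of the Ctrl peaks of chromosome 8. Of the other 1527 tiles of 2 Mb, 1 held more peaks in each list, a tile of chromosome 21 with 41 HD and 45 Ctrl peaks and 1 coding gene. The limits of the region were set around the genes, which favours it. The tile of the fixed grid that starts 1 Mb higher and runs past the last annotated gene held 18 HD and 28 Ctrl peaks and was rank 4 in each list against those 1527 tiles. The grid tile that starts 1 Mb lower held 13 HD and 24 Ctrl peaks, rank 11 in HD and 5 in Ctrl, which is 6.5 HD and 12 Ctrl peaks per Mb, both below the intervals given for the region. The higher tile reaches past 145.056 Mb, where the last gene or peak of the chromosome ends. A value per full 2 Mb would understate its density, so none is compared with the intervals.

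The region is rich in genes, and the peaks were dense per gene as well. It touches 78 coding genes, against a median of 9 per tile, and 7 of the other tiles touch more. It held 0.333 HD and 0.564 Ctrl peaks per coding gene, against 0.113 HD and 0.202 Ctrl peaks on the rest of chromosome 8. The 64 other tiles with 50 or more coding genes held a median of 5 HD and 6 Ctrl peaks and at most 19 HD and 25 Ctrl peaks. The input was also high there. The median expectation at peaks of the region was 2.03 times the genome-wide value in HD and 2.04 times in Ctrl, against 1.63 in HD and 1.46 in Ctrl on the rest of chromosome 8, and 1.37 in HD and 1.44 in Ctrl over all peaks. None of its peaks sat at the genome-wide value, which 13.2% of all HD and 15.8% of all Ctrl peaks did. The part of input level, and of the number of gene copies it may follow, in the density of peaks was not tested.

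**Figure D4:**
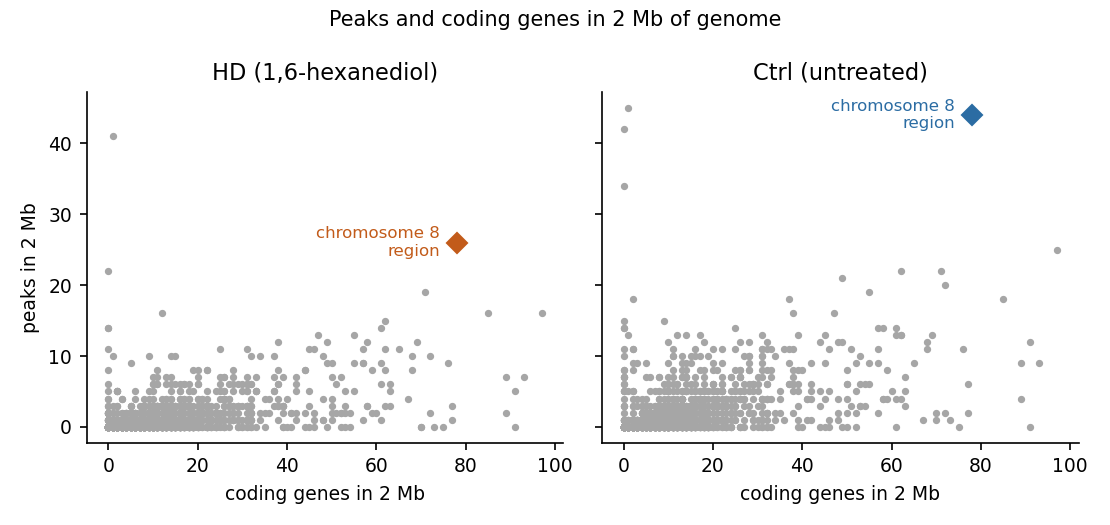
Peaks (vertical) against coding genes (horizontal) in 2 Mb of genome, with the HD list on the left and the Ctrl list on the right. Grey points are the 1527 other tiles and the diamond is the chromosome 8 region, with 26 HD and 44 Ctrl peaks at 78 genes, above every tile with 50 or more genes.

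Within the region the HD peaks were mostly at places that also had a Ctrl peak. Of 26 HD peaks, 20 (76.9%) overlapped a Ctrl peak, against 66.2% on the rest of chromosome 8 and 59.7% of all HD peaks. Of 44 Ctrl peaks, 20 (45.5%) overlapped an HD peak, against 37.0% on the rest of chromosome 8 and 38.5% of all Ctrl peaks. The HD list had 59.1% as many peaks as the Ctrl list there, 55.9% on the rest of chromosome 8 and 64.3% on all chromosomes compared. Gene-end location was found for 21 of 26 HD peaks (80.8%), against 62.0% on the rest of chromosome 8 and 60.7% of all HD peaks. It was found for 26 of 44 Ctrl peaks (59.1%), against 51.2% on the rest of chromosome 8 and 53.6% of all Ctrl peaks. The region is rich in gene ends, and their part in these shares was not tested. The ZNF7 peak had the best −log10 q of the region in both lists. HGH1, with 53 fragments, was the second by −log10 q in Ctrl.

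HGH1 lay in the part of the region that was densest in the Ctrl list. In steps of 200 kb along the region, the step with HGH1, the one that begins 1 Mb into the region, held 3 HD and 8 Ctrl peaks, and the next step also held 3 HD and 8 Ctrl peaks. The last step, with ZNF7 and ZNF250, held 3 HD and 2 Ctrl peaks, both of the Ctrl peaks being those of the 2 genes. In the HGH1 step, peaks were found in both lists at CYC1, the cytochrome c1 gene (66 HD and 48 Ctrl fragments), at MAF1 and SHARPIN, which share 1 peak (52 in HD and 33 in Ctrl), and at MROH1 (59 in HD and 41 in Ctrl). GPAA1, a subunit gene of the GPI transamidase, had a peak of 37 fragments in Ctrl only. GPAA1, MAF1 and SHARPIN were singled out as genes of this step and not by the naming rule given below. Besides the peaks of GPAA1 and HGH1, the Ctrl-only peaks of the step had 36, 36 and 92 fragments. HGH1 therefore had the highest −log10 q of the 8 Ctrl peaks of its step and was 1 of 5 without an HD partner.

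**Figure D5:**
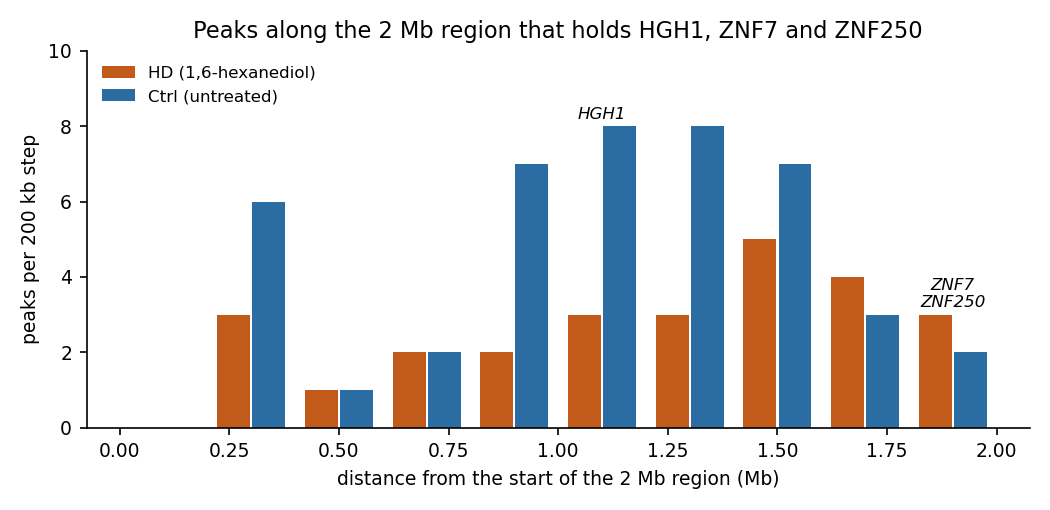
Peaks in each 200 kb step of the 2 Mb region, HD left of Ctrl, by distance in Mb from the start of the region, with the steps that hold HGH1, ZNF7 and ZNF250 named. The HGH1 step has 3 HD and 8 Ctrl peaks and the step of ZNF7 and ZNF250 has 3 HD and 2 Ctrl peaks.

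Counted by gene, 25 of the 78 coding genes of the region (32.1%, exact binomial interval 21.9 to 43.6) had an HD peak within 1 kb of either end and 32 (41.0%, 30.0 to 52.7) had a Ctrl peak, against 8.11% of all coding genes in HD and 10.9% in Ctrl. Both lists marked 22 of them, against 5.2% of all coding genes, the Ctrl list alone marked 10, against 5.7%, and the HD list alone 3, against 2.92%. The intervals take genes as independent, although neighbours can share 1 peak. With each peak given to 1 gene only, 21 genes were marked in HD and 25 in Ctrl. Without the members, which were chosen for their peaks, 23 were marked in HD and 29 in Ctrl. These numbers still count LOC124902042, which the ZNF250 peak marks in both lists. After ZNF7 and HGH1, the genes with the highest −log10 q were DGAT1, an enzyme of triglyceride synthesis (65 fragments in HD and 52 in Ctrl), and LOC124902042 and ZNF250 with their shared peak. Next came HSF1, the main heat shock transcription factor, and BOP1, a ribosome assembly factor, which lie side by side and share a peak (56 in HD and 50 in Ctrl). MAFA, a transcription factor of insulin-producing cells (65 in HD and 44 in Ctrl), MROH1 and CYC1 completed the first 10. All of these except HGH1 were marked in both lists. PLEC, the gene of the cytoskeletal linker plectin, was singled out after its values were seen. It had 0 HD peaks and 5 Ctrl peaks inside it or within 1 kb, the highest number of Ctrl peaks of any coding gene of the region, with 29 to 46 fragments each, and 4 of the 5 had their summit inside the gene.

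Lists of related genes were compared with the same background, 8.11% of coding genes in HD and 10.9% in Ctrl, without a test. Of the 15 zinc finger genes of chromosome 8 named ZNF with a number, 5 were marked in HD and 7 in Ctrl. All of those marked in HD lie in the dense region except ZNF706, so nothing is read from these counts about zinc finger genes. The first 4 by −log10 q were ZNF7, ZNF706, ZNF250 and ZNF696 (57 fragments in HD and 36 in Ctrl), all in both lists, and 3 of these 4 are members chosen for their peaks. Of 42 genes of bromodomain proteins, 5 were marked in HD and 7 in Ctrl. ATAD2 had the highest −log10 q of them, but it is a member chosen for its peak and is counted here, so nothing is read from its lead. BRPF1, a scaffold of histone acetyltransferase complexes, had 38 fragments in HD and 31 in Ctrl, and PBRM1, a subunit of a chromatin remodeller, had 34 in HD and 26 in Ctrl. ATAD2B, the closest relative of ATAD2, had a peak of 35 fragments in HD only.

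Of 19 genes for the folding and modification of eEF2, 4 were marked in HD and 7 in Ctrl. HGH1 had the highest −log10 q of them in Ctrl, but it too is a member chosen for its peak and is counted here. EEF2KMT, which encodes a methyltransferase of eEF2, had 63 fragments in HD and 46 in Ctrl, and the chaperonin subunit genes CCT6A (39 in HD and 34 in Ctrl) and CCT8 (45 in HD and 29 in Ctrl) were also marked in both lists. Of 30 genes of the long arm of chromosome 8 that are often studied in copy gains, 12 were marked in HD (40.0%, 22.7 to 59.4) and 13 in Ctrl (43.3%, 25.5 to 62.6), 10 of them in both. After ATAD2, the highest −log10 q were those of RRM2B, a ribonucleotide reductase subunit (57 fragments in HD and 40 in Ctrl), HSF1 and BOP1. This list holds ATAD2 itself and genes of the dense region.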

How the data were processed

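BG4 ChIP-seq of U2OS cells was deposited as 1 MACS2 peak list per condition, HD and Ctrl. MACS2 2.2.7.1, Bowtie2 2.5.0, FastQC 0.11.9, SAMtools and hg38 are named in the submitters' processing notes, without settings. The authors deposited, for each peak, a fold enrichment (a ratio over the local background), −log10 p, −log10 q and a summit position. Input tracks were not analysed here. Summit fragments, the input expectation and depth were recovered from fold and p with Python 3.11.15 and SciPy 1.17.1, after the caller's formulas, with 1 added to pileup and expectation in the fold, and p the Poisson tail above the pileup. The deposited −log10 p was met within 0.01 for 2262 of 2269 HD and 3502 of 3507 Ctrl peaks, and the recovery was tested on simulated data. "Times input" is the scaled pileup divided by the expectation. Peaks on other sequences (97 HD, 131 Ctrl) and 798 genes on scaffolds or without a place were left out. Peaks overlapped at 1 bp or more. A coding gene was marked by a peak within 1 kb of either end. Ratios have exact conditional intervals. Genes were named by a rule: the 5 members, up to 10 marked genes of the region and 4 of each list by −log10 q, 3 genes nearest in rank, and neighbours sharing a peak. Others are said to be so. The members, lists and region were chosen with earlier results of these data known.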

Additional observations from a re-analysis of the deposited data

How the results depend on the processing

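No paired analysis was possible because each condition has 1 peak list and no result comes from a test. For the same reason no replicate could be left out. Of 74 alternative values for 22 results, 70 kept within their interval or within 1.5 times the count. The alternatives included other windows, a −log10 q of at least 3, equal list lengths of 2172 peaks and other overlap rules. The equal length is that of the HD list, so no HD value could change under it. The members were picked for strong peaks, so their counts could hardly move either. The number that kept is therefore no measure of robustness. The HD to Ctrl ratio of ZNF250 was 0.61 (0.42 to 0.90), in place of 0.99, when set over the input expectation, which was higher in HD. The region crosses 2 tiles of the fixed grid, alternatives chosen after seeing the data. Its density of 13 HD and 22 Ctrl peaks per Mb became 6.5 HD and 12 Ctrl in the tile that starts 1 Mb lower. The tile that starts 1 Mb higher gave 9 HD and 14 Ctrl when divided by a full 2 Mb. That tile reaches past 145.056 Mb, where the last gene or peak of the chromosome ends, so both values understate its density. The Ctrl value was nevertheless counted as beyond 1.5 times. Asking for 50% reciprocal overlap, 3 of the 4 shared member peaks remained, without that of ZNF706. Depth limits the ratios: each rests on 44 to 96 fragments per list.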
